A study of Mus musculus with 8 samples.

Results

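Fragments of the nuclear lysine tRNAs were described in small RNA libraries from mouse sperm, separately for the anticodons CTT (tRNA-Lys-CTT) and TTT (tRNA-Lys-TTT). A fragment is 1 distinct read sequence, and a fragment belonged to the set when its annotation held only tRNA names, all of them nuclear tRNA-Lys and none mitochondrial. Of 5724730 distinct sequences in the 8 libraries, 23520 were annotated to nuclear tRNA alone and 1143 of these met the rule. Of the 1143 fragments, 825 were named for CTT, 303 for TTT and 15 for both anticodons, the last called shared below. The 2 anticodons are 2 of the 50 combinations of amino acid and anticodon seen in the nuclear tRNA fragments.

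The study activated hypothalamic AgRP neurons, cells that drive feeding, and profiled the small RNAs of mature sperm shortly afterwards. The activated group was 4 male mice of genotype Agrp Cre/+ and the control group 4 male mice of genotype Agrp +/+, operated at the age of 8 weeks. Both groups received the same virus in the arcuate nucleus, AAV-hM3Dq-mCherry, which carries an activating designer receptor (DREADD) in a Cre-dependent cassette under a neuronal synapsin promoter, so that only cells with Cre can make the receptor. Both groups were also given the receptor's ligand CNO (1 mg/kg) after food had been withdrawn for 1 h, and sperm from the caudae epididymides was collected 4 h later, with 1 library per mouse. The groups thus differed in the Cre allele together with neuronal activation, which cannot be told apart here, while virus, ligand and lack of food were shared.

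Transfer RNAs carry amino acids to the ribosome, and the anticodon in the middle of the molecule pairs with the codon of the messenger RNA; tRNA-Lys-CTT reads the lysine codon AAG and tRNA-Lys-TTT the lysine codon AAA. Cleavage in or near the anticodon loop yields 5′ fragments and 3′ fragments, and the 3′ end of every mature tRNA carries the letters CCA, which an enzyme adds after transcription. Such fragments are abundant in mature sperm, which acquire part of them during passage through the epididymis.

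Selected 5′ sequences are shown first, since the 5′ class carries most of the reads. They let both lysine tRNAs, and a pair of forms of tRNA-Lys-CTT, be told apart within 33 nt. Sequences are written 5′ to 3′ with T for U, as deposited, and capitals mark the positions at which these 33 nt sequences differ.
tRNA-Lys-CTT first form 33 nt: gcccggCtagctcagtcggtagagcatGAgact
tRNA-Lys-CTT second form 33 nt: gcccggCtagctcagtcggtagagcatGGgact
tRNA-Lys-TTT 33 nt: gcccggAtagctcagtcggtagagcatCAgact
tRNA-Lys-TTT 26 nt: gcccggAtagctcagtcggtagagca
tRNA-Lys-TTT 24 nt: gcccggAtagctcagtcggtagag
Counted from 1 at the 5′ end, the second CTT form differs from the first by A29G, and TTT differs from the first CTT form by C7A and G28C. A 5′ fragment therefore shows its anticodon class through position 7 before the anticodon itself is reached.

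Fragments from the other end of the molecule are shown with the CCA letters in capitals, because CCA fragments hold most of the reads outside the 5′ class. The 30 nt and 29 nt sequences of CTT are shown as well, since they differ only in the last base and fall in different annotation classes.
tRNA-Lys-CTT CCA end 15 nt: ccacgttgggcgCCA
tRNA-Lys-TTT CCA end 15 nt: cctgttcgggcgCCA
tRNA-Lys-CTT CCA end 30 nt: tcgtgggttcgagccccacgttgggcgCCA
tRNA-Lys-CTT internal 29 nt: tcgtgggttcgagccccacgttgggcgcc
The 29 nt fragment ends 1 base before the final A, covering bases 47 to 75 of the molecule, and is counted as internal.

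The whole molecules were assembled from overlapping fragments of the deposited tables, to place each fragment relative to the anticodon, which is in capitals.
tRNA-Lys-CTT joined: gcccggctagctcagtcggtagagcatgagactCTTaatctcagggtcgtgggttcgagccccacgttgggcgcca
tRNA-Lys-TTT joined: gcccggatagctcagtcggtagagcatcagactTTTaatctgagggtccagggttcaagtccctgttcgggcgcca
Each is 76 nt with CCA and 73 nt without it, the length of the genes that RefSeq lists for mouse (GRCm38.p6), 24 with the anticodon CTT on 12 chromosomes and 2 with TTT on chromosome 13. The listed TTT genes carry the symbols n-TKttt22 and n-TKttt23, so these gene counts may be incomplete. The joins rest on overlaps of 12 bases for CTT and 9 bases for TTT. In both molecules the anticodon takes bases 34 to 36, so a 5′ fragment of 33 nt ends at the last base before it. The molecules differ at 12 positions (C7A, G28C, C34T, C42G, G49C, T50A, G57A, C60T, A64T, C65G, G66T and T68C, CTT first).

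The libraries held 14903635, 17489698, 14757501 and 9409491 reads of 15 to 45 nt in activated replicates 1 to 4, and 12421068, 23123740, 9297271 and 14348060 in control replicates 1 to 4. Levels are given as reads per 1000000 of these totals (RPM), with means ± SD over 4 mice per group. Reads of nuclear tRNA-Lys numbered 572489 over the 8 libraries, from 36266 in activated replicate 4 to 124944 in control replicate 2. No molecular identifiers were used, so copies of 1 molecule may be counted more than once, and a lower level in whole sperm samples cannot distinguish fewer cells of a type from less RNA per cell.

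Some libraries stood apart before any tRNA was compared. Mitochondrial rRNA made up 0.182% and 0.145% of reads in activated replicates 1 and 4 and 0.167% and 0.123% in control replicates 2 and 4. It made up 1.89% and 1.69% in activated replicates 2 and 3 and 1.21% and 1.09% in control replicates 1 and 3. The libraries thus formed a low and a high set of 4 with 2 mice per group in each, and values within each set are given for the main comparisons.

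Marker miRNAs described the cells behind the libraries. The 3 sperm and testis miRNAs, all detected in each library and led by mir-34b, summed to 22574, 16312, 15798 and 21276 RPM in the activated mice and 15498, 19057, 13334 and 15133 RPM in the controls. The 3 smooth muscle miRNAs, led by mir-143, summed to 387, 198, 138 and 289.8 RPM in the activated mice and 199, 359.9, 243 and 35005 RPM in the controls. Control replicate 4 lay far above the other 7 libraries. The 7 epithelial miRNAs, led by mir-200c, summed to 3476, 1166, 1085 and 1196 RPM in the activated mice and 1364, 1825, 2732 and 19420.2 RPM in the controls, again highest in control replicate 4. Activated replicates 2, 3 and 4 lay below all controls in this set. Its ratio of means was 0.273, from 0.181 without activated replicate 1 to 0.877 without control replicate 4. The 4 erythroid miRNAs, led by mir-451a and with 2 of the 4 detected in every library, summed to 201, 47.9, 64.6 and 58.3 RPM in the activated mice and 126, 383, 565 and 285 RPM in the controls. Activated replicates 2, 3 and 4 lay below all controls and control replicate 3 was highest, as it was for tRNA-Lys below, and the ratio of means was 0.274, from 0.168 without activated replicate 1 to 0.351 without control replicate 3. The 3 leukocyte miRNAs, led by mir-142a, summed to 856, 397, 654 and 581 RPM in the activated mice and 342, 452, 293 and 548 RPM in the controls, a ratio of 1.52 in the opposite direction, from 1.33 without activated replicate 1 to 1.72 without control replicate 4. No marker was at 0 in every library. Control replicate 4, highest in the muscle and epithelial miRNAs, had the lowest tRNA-Lys level of the controls. The part of other cells, blood cells included, in the results below was not tested beyond leaving out single libraries.

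The first question was whether the level of tRNA-Lys fragments differed between the groups. All nuclear tRNA-Lys fragments together reached 5155, 3991, 3312 and 3854 RPM in activated replicates 1 to 4 and 5871, 5403, 9872 and 3558 RPM in control replicates 1 to 4. Control replicate 3 was highest and activated replicate 3 lowest, and the groups overlapped because control replicate 4 lay below 3 of the activated mice. The means were 4078 ± 775 and 6176 ± 2659 RPM, a ratio of 0.660. That ratio was 1.01 within the libraries low in mitochondrial rRNA, where no fall was seen, and 0.464 within those high in it, 0.825 without control replicate 3 and 0.579 without control replicate 4.

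The CTT class reached 2607, 2191, 2042 and 1792 RPM in the activated mice and 3419.5, 2722, 6859.6 and 1906 RPM in the controls. Control replicate 3 exceeded every other library, while control replicate 4 was within the activated range. The TTT class reached 2544, 1799, 1269.7 and 2059.7 RPM in the activated mice and 2451, 2680.5, 3008 and 1651 RPM in the controls. These values were interleaved, with activated replicate 3 lowest and control replicate 3 highest. The ratio of means was 0.579 for CTT and 0.784 for TTT. Within the low and the high mitochondrial rRNA set it was 0.950 and 0.412 for CTT and 1.06 and 0.562 for TTT. As a share of nuclear tRNA reads in place of all reads, the ratio was 0.799 for CTT and 1.01 for TTT, so the direction for TTT turned with this denominator as it did in the low set. Shared fragments stayed between 0.488 and 4.09 RPM and rested on 184 reads in all.

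Reads were then divided by the end of the molecule they came from: 5′ end, CCA end, 3′ end without CCA, and internal. The 5′ class of CTT reached 1866, 1728, 1693 and 1303 RPM in the activated mice and 2784, 2124, 6042 and 1464 RPM in the controls. Control replicate 3 had the highest level, activated replicate 4 the lowest, and activated replicates 1 to 3 lay above control replicate 4. The 5′ class of TTT reached 1997, 1355, 927 and 1649 RPM in the activated mice and 1815, 2305, 2196 and 1292 RPM in the controls. Here the lowest library was activated replicate 3, followed by control replicate 4, and activated replicates 1, 2 and 4 lay within the control range.

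The group means of the CTT 5′ class were 1647 ± 242 and 3103 ± 2032 RPM, a ratio of 0.531, with 0.883 in the low and 0.388 in the high mitochondrial rRNA set. Leaving out control replicate 3 gave 0.776, and leaving out control replicate 4 gave 0.451. For the TTT 5′ class the means were 1482 ± 453 and 1902 ± 458 RPM, a ratio of 0.779, with 1.01 in the low set, where the direction turned, and 0.569 in the high set. The gap between the groups thus lay mainly within the high set for both anticodons, and whether the sets differ in it was not tested. For CTT the high set value rests in large part on control replicate 3, at 6042 RPM. Control replicate 1, the other control of that set, stood at 2784 RPM.

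The CCA class of CTT reached 521, 332, 242 and 368 RPM in the activated mice and 489, 419, 584 and 244 RPM in the controls. The CCA class of TTT reached 452, 392, 303 and 359 RPM in the activated mice and 571, 307, 734 and 277 RPM in the controls. In both classes control replicate 3 was highest, and the groups overlapped. The ratios of means were 0.843 for CTT and 0.798 for TTT, and 1.11 and 1.08 per nuclear tRNA read, where the direction turned. It also turned within the low mitochondrial rRNA set, to 1.34 for CTT and 1.39 for TTT, but not within the high set, with 0.535 and 0.533.

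The internal class of CTT reached 218, 131, 107 and 120.4 RPM in the activated mice and 146, 177, 234 and 198 RPM in the controls. The internal class of TTT reached 94.8, 51.6, 38.9 and 52.0 RPM in the activated mice and 64.6, 68.6, 78.7 and 82.6 RPM in the controls. In both, activated replicates 2, 3 and 4 lay below all 4 controls, while activated replicate 1 lay among the highest libraries, so the groups overlapped. The same activated mice lay below all controls in the epithelial and the erythroid miRNAs. Control replicate 4 and activated replicate 1 were the highest libraries in the epithelial miRNAs, and a link to the internal fragments was not tested. The ratios of means were 0.764 and 0.806, and 0.633 and 0.645 without activated replicate 1. They were 0.904 and 0.971 in the low and 0.626 and 0.632 in the high mitochondrial rRNA set. Fragments ending at the 3′ end without CCA numbered 93 reads for CTT and 2 reads for TTT over all libraries.

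**Figure D1:**
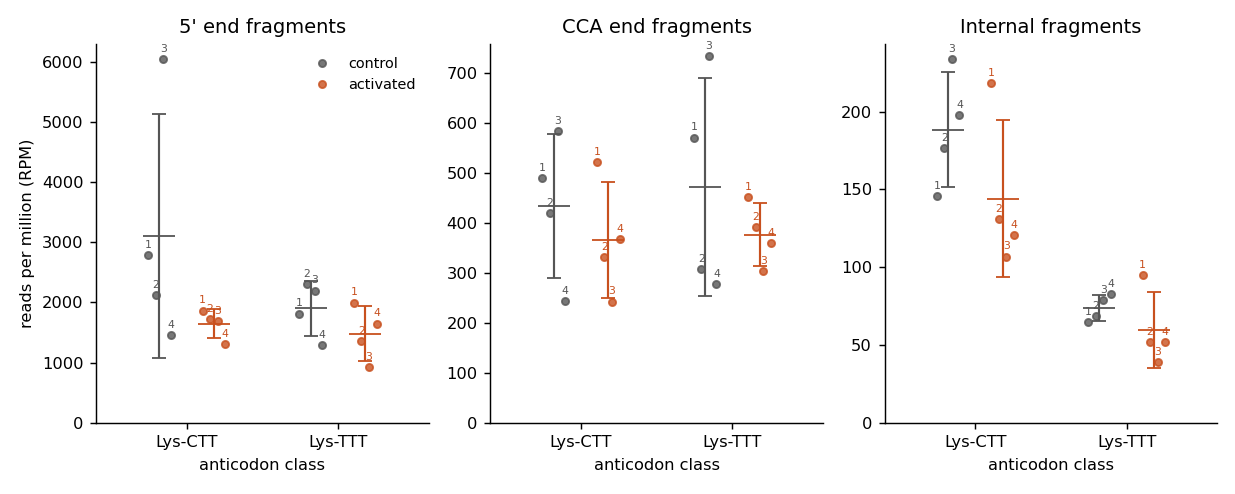
Levels of 5′ end, CCA end and internal tRNA-Lys fragments in RPM by anticodon; each point is 1 library with its replicate number, bars are means with SD. Control replicate 3 stands at 6042 RPM in the CTT 5′ class, and the groups overlap in each of the 6 classes.

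Averaged over the 8 libraries, the order of the classes was the CTT 5′ class (2375 RPM), the TTT 5′ class (1692 RPM), the TTT CCA class (424 RPM), the CTT CCA class (400.0 RPM), the CTT internal class (166 RPM) and the TTT internal class (66.5 RPM). Both leading classes did not differ beyond the spread, since CTT lay above TTT in 5 of 8 libraries, and neither did both CCA classes, with CTT above TTT in 3 of 8. The internal CTT class lay above the internal TTT class in 8 of 8 libraries. These levels count fragments, which differ in length between the classes. Both whole molecules have 1 length, 76 nt, and no correction for length was made. The order of the classes therefore holds only for the fragment lengths kept, since shorter pieces were not recorded.

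Differences between the groups were tested with edgeR on the reads of each RNA species, a tRNA species being 1 anticodon and end. A species was called when its adjusted p was under 0.05 and its log2 fold change exceeded 1 in either direction. None of the 6 tRNA-Lys species tested passed in edgeR, where 0 of 604 species did (0%), and at an unadjusted p under 0.05 the counts were 0 tRNA-Lys species, and 9 higher and 43 lower of all species. DESeq2 also called 0 tRNA-Lys species and 3 of 604 species, all lower in the activated mice (0.497%), and at an unadjusted p under 0.05 it gave 1 tRNA-Lys species, lower, beside 29 higher and 43 lower of all. The log2 fold change was -0.88 for the CTT 5′ species (SE 0.42, edgeR adjusted p 0.563) and -0.37 for the TTT 5′ species (SE 0.23, edgeR adjusted p 0.576). The CTT 5′ value was -0.33 without control replicate 3 and -1.21 without control replicate 4, and the TTT 5′ value -0.30 and -0.59.

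The remaining species were the CTT CCA (-0.26), TTT CCA (-0.31), CTT internal (-0.42) and TTT internal (-0.35) classes. Without control replicate 3 the CTT CCA value was -0.08 and the TTT CCA value -0.02, and without control replicate 4 they were -0.54 and -0.60. The log2 fold changes of all 6 tRNA-Lys species were negative, with a median of -0.36, beside 324 of 604 species with a median of -0.07. With 1 library left out the tRNA-Lys median ran from -0.57 (without control replicate 4) to -0.27 (without activated replicate 3). Of the 150 species of other nuclear tRNAs, 138 were negative, with a median of -0.28 and with 0 passing the test in edgeR, 13 lower and 0 higher at an unadjusted p under 0.05. Among these, 30 of the 31 species of 5′ fragments were negative, with a median of -0.61. The negative sign thus occurred in most species of other nuclear tRNAs as well, and 0 species passed in edgeR in either group. The summed RPM of the other nuclear tRNAs in the activated mice was 0.767 times that in the controls. This ratio was 0.978 in the low and 0.619 in the high mitochondrial rRNA set.

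The share of a class in 5′ fragments was compared next, a value into which the library total does not enter. For CTT the 5′ share was 71.6, 78.9, 82.9 and 72.7% in the activated mice and 81.4, 78.0, 88.1 and 76.8% in the controls. For TTT it was 78.5, 75.3, 73.0 and 80.0% in the activated mice and 74.1, 86.0, 73.0 and 78.2% in the controls. Both classes were mostly 5′ fragments in every library and the groups overlapped in both. A two-sided exact permutation test gave p 0.286 for CTT (difference -4.56 percentage points, adjusted p 0.540 over 34 anticodon classes) and p 0.857 for TTT (difference -1.08 percentage points, adjusted p 0.971). The smallest p that 4 against 4 allows is 0.0286, so an adjusted p under 0.05 could be reached only if most of the tests gave that p, and the absence of one in these exact tests carries little weight. Within the low and the high mitochondrial rRNA set the difference was -5.27 and -3.85 points for CTT and -2.83 and 0.663 points for TTT. The CTT difference was -0.925 points when only fragments of at least 20 nt were used, and -2.23 points without control replicate 3, -2.92 points without activated replicate 1 and -6.69 points without activated replicate 3. The TTT difference was -0.128 points with fragments of at least 20 nt, and it was positive without activated replicate 3 (0.145 points) or control replicate 2 (1.64 points).

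CCA fragments made up 8.51 to 20.5% of CTT reads and 11.4 to 24.4% of TTT reads over the 8 libraries. The 15 nt pieces shown above with their CCA letters, the shortest length kept, held 39.5 to 61.2% of the CTT and 77.6 to 89.1% of the TTT reads of that class. These short ends therefore stop at the lower length limit of the tables, and shorter pieces were not recorded. Every 5′ read matched the genome, as did 92.6 to 97.2% of the CTT and 88.7 to 95.6% of the TTT reads of the CCA class. Since the mapping allowed no mismatches, the match of the 5′ reads was largely fixed by how they were annotated.

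The lengths of the 5′ fragments separated the anticodons. In CTT, the most frequent length was 33 nt in all 8 libraries, with 44.4, 46.3, 41.5 and 34.9% of its 5′ reads in the activated mice and 41.2, 42.7, 51.0 and 44.8% in the controls. Fragments of 29 to 36 nt held 91.4 to 97.2% of the CTT 5′ reads. The 33 nt length, which ends at the last base before the anticodon, was thus the most frequent single length but exceeded 50% of the CTT 5′ reads only in control replicate 3. In TTT, the most frequent length was 26 nt in 7 libraries and 24 nt in control replicate 3. The 26 nt length held 41.4, 36.7, 34.4 and 42.6% of its 5′ reads in the activated mice and 35.1, 42.6, 31.8 and 40.0% in the controls, and the 24 nt length 25.9 to 33.6%.

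Fragments of 22 to 28 nt held 74.7 to 80.2% of the TTT 5′ reads, against 2.55 to 7.60% of the CTT 5′ reads. At 33 nt, TTT had a smaller maximum of 7.68 to 11.8%. Both TTT ends, after bases 24 and 26, precede base 28, so the part of the molecule read by these fragments differs from CTT at position 7 alone. Why the lengths differ was not tested.

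**Figure D2:**
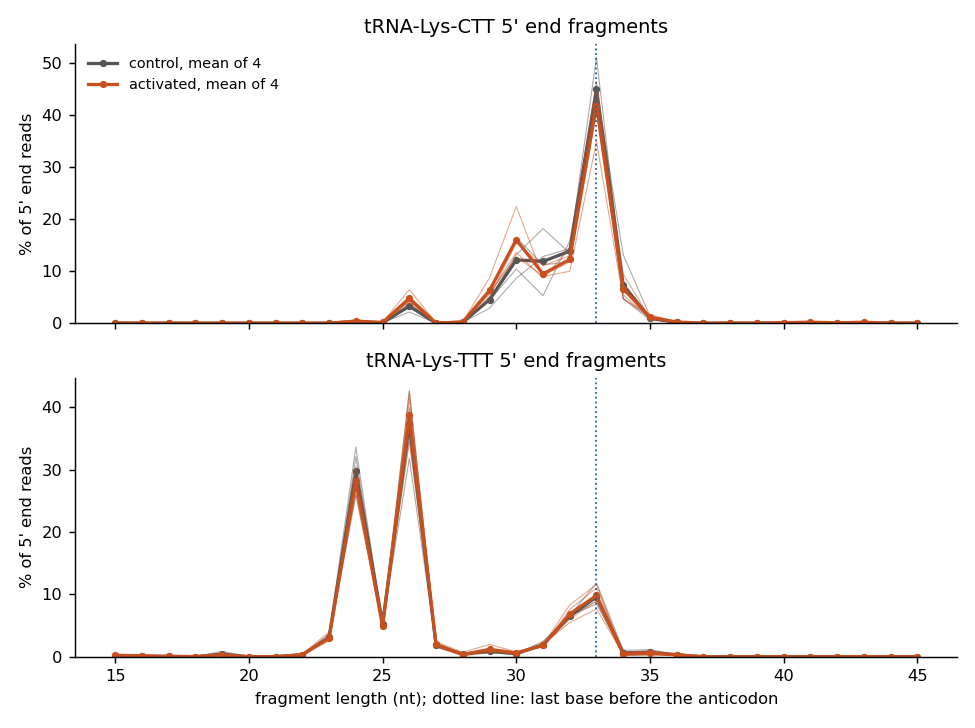
Length of the 5′ end fragments of tRNA-Lys-CTT (top) and tRNA-Lys-TTT (bottom) in percent of the 5′ reads of each class; thin lines are single libraries, thick lines means of 4, and the dotted line marks the last base before the anticodon. CTT has its maximum at 33 nt in all 8 libraries, and TTT its maxima at 26 and 24 nt.

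The mean length of the CTT 5′ reads was 31.9, 31.8, 31.8 and 31.3 nt in the activated mice and 31.8, 31.7, 32.1 and 32.1 nt in the controls. That of the TTT 5′ reads was 26.4, 26.9, 26.7 and 26.5 nt in the activated mice and 26.4, 26.6, 26.7 and 26.6 nt in the controls. In each library the CTT fragments were longer, by 4.82 to 5.53 nt, while the groups overlapped within each anticodon. The exact permutation test, two-sided, gave p 0.286 for CTT (difference -0.230 nt, adjusted p 0.735 over 18 classes) and p 0.771 for TTT (difference 0.036 nt, adjusted p 0.771). For CTT the difference was -0.318 nt in the low and -0.142 nt in the high mitochondrial rRNA set, and for TTT -0.153 and 0.225 nt, with opposite signs. The CTT difference was -0.0947 nt without activated replicate 4, -0.157 nt without control replicate 3 and -0.156 nt without control replicate 4. Without activated replicate 2 the TTT difference was -0.0448 nt, and without control replicate 1 -0.0260 nt. Among the 18 nuclear tRNA anticodon classes with enough 5′ reads, averaged over the libraries, CTT was rank 6 and TTT rank 11 from the longest, from 34.0 nt in tRNA-Glu-TTC to 20.2 nt in tRNA-Ser-GCT.

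**Figure D3:**
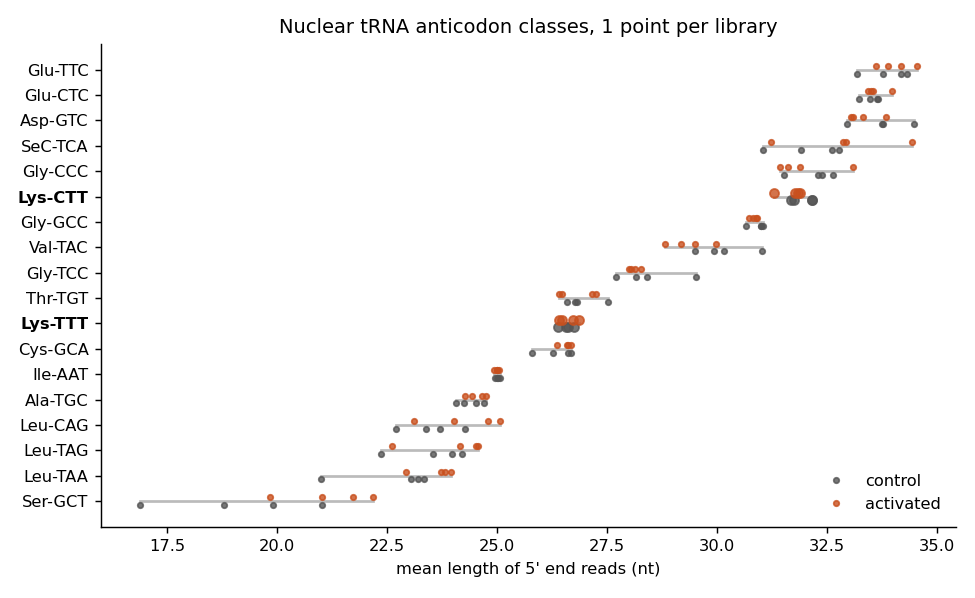
Mean length in nt of the 5′ end reads of 18 nuclear tRNA anticodon classes, 1 point per library, with the range as a grey line; the lysine classes are in bold. Lys-CTT lies between 31.3 and 32.1 nt and Lys-TTT between 26.4 and 26.9 nt.

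Sums by anticodon, end and length were also fitted, 61 of them tRNA-Lys. The edgeR test called 0 of these 61 and 0 of 3216 sums in all (0%), with 3 tRNA-Lys sums lower and 0 higher at an unadjusted p under 0.05, beside 55 higher and 170 lower of all. DESeq2 called 0 of the 61 and 13 of 3216 (0.404%), with 9 tRNA-Lys sums lower and 0 higher at an unadjusted p under 0.05, beside 134 higher and 195 lower of all. The log2 fold change was negative in 54 of 61 tRNA-Lys sums, with a median of -0.36, beside 1661 of 3216 with a median of -0.02. With 1 library left out the tRNA-Lys median ran from -0.42 (without activated replicate 1) to -0.22 (without activated replicate 3). Among the 5′ lengths of CTT, the value was -1.20 at 31 nt, -0.94 at 32 nt and -0.92 at 33 nt, against -0.12 at 26 nt and -0.32 at 30 nt. It was positive at 36 nt (0.15) and 41 nt (0.15). Among the 5′ lengths of TTT it was lowest at 34 nt (-0.87), 19 nt (-0.85) and 35 nt (-0.67). It was -0.39 at 24 nt, -0.23 at 26 nt and -0.31 at 33 nt, but 0.14 at 29 nt and 0.01 at 30 nt. In RPM, the ratio of means of CTT was 0.391 at 31 nt, 0.474 at 32 nt and 0.481 at 33 nt. Without control replicate 3 these ratios were 0.570, 0.715 and 0.771. These lengths were picked after their values were seen, and whether the fold change differs between lengths was not tested.

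**Figure D4:**
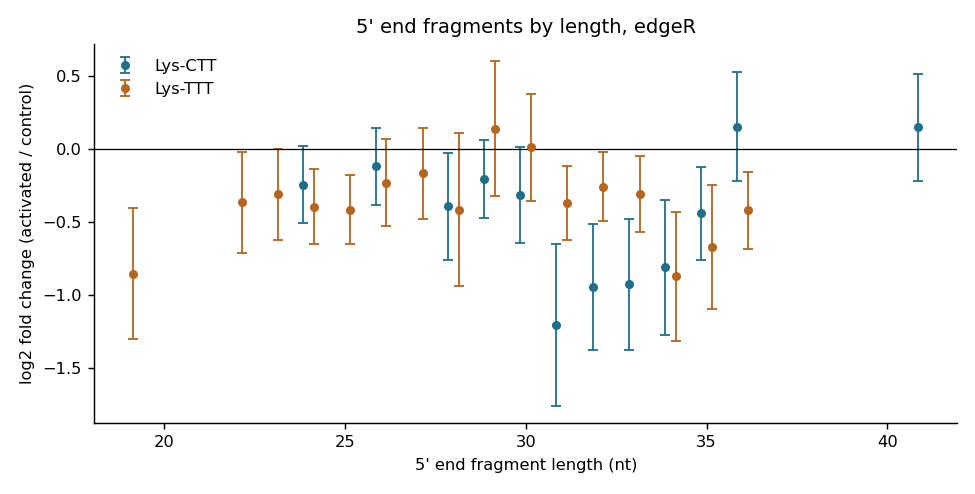
Log2 fold change (activated against control, edgeR) of the 5′ end fragments of tRNA-Lys-CTT and tRNA-Lys-TTT at each tested length in nt; bars are standard errors. The lowest value is -1.20 for CTT at 31 nt, and no length passed the adjusted threshold.

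Groups without overlap in RPM were found for 2 of the 61 tRNA-Lys sums by length, both lower in the activated mice. Over all 3216 sums there were 89 (2.77%), 30 higher and 59 lower. The tRNA-Lys count is near that share, so it marks nothing particular to tRNA-Lys. The 2 tRNA-Lys sums were the internal CTT fragments of 29 and 31 nt. The 29 nt class, led by the sequence shown above that lacks only the final A, reached 8.05, 9.09, 6.23 and 9.78 RPM in the activated mice and 15.3, 17.1, 16.1 and 10.9 RPM in the controls. Each activated mouse lay below each control. The 31 nt class reached 4.09, 3.66, 2.37 and 4.25 RPM in the activated mice and 5.07, 7.35, 9.47 and 5.65 RPM in the controls. In edgeR the log2 fold changes were -0.76 and -0.87, both with an adjusted p of 0.692. Together with the internal 28 nt class of CTT, with a log2 fold change of -0.62, they are the 3 sums at an unadjusted p under 0.05.

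Single sequences were tested in the same way. Of the 1143 fragments, 53 reached the minimum of 50 counts in 4 or more libraries, and these 53 held 95.2% of the tRNA-Lys reads; 50 of them matched the genome. EdgeR called 0 of the 53, beside 52 of all 12077 fragments (0.431%), which were all higher in the activated mice, and DESeq2 called 0 of the 53, beside 240 of 12077 (1.99%). At an unadjusted p under 0.05, 3 tRNA-Lys fragments were lower and 0 higher in edgeR, beside 454 lower and 418 higher of all 12077. In DESeq2 6 were lower and 0 higher, beside 498 lower and 482 higher of all. No tRNA-Lys fragment had groups without overlap in RPM, 0 of 53 beside 481 of 12077 (3.98%). The log2 fold change was negative in 49 of 53, with a median of -0.40, beside 5276 of 12077 with a median of 0.08. With 1 library left out the tRNA-Lys median ran from -0.48 (without activated replicate 1) to -0.24 (without activated replicate 3).

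The most abundant 5′ fragment of CTT, the first form of 33 nt, reached 584, 507, 499 and 279.5 RPM in the activated mice and 816, 579.8, 2349 and 439 RPM in the controls. Control replicate 3 was again far above the rest, and control replicate 4 below 3 of the activated mice. Its log2 fold change was -1.12 (edgeR adjusted p 0.709), and -0.39 without control replicate 3. The most abundant 5′ fragment of TTT, 26 nt long, reached 826, 497, 319 and 703 RPM in the activated mice and 637, 981, 698 and 516 RPM in the controls. Control replicate 2 was highest and activated replicate 3 lowest, and activated replicates 1 and 4 lay above 3 of the controls. Its log2 fold change was -0.27 (edgeR adjusted p 0.986), and with 1 library left out it ran from -0.46 without activated replicate 1 to -0.0564 without control replicate 2.

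The 3 tRNA-Lys fragments with the smallest p in the lower direction were all CTT. The 5′ fragment of 32 nt reached 215, 242, 213 and 126 RPM in the activated mice and 368, 245, 854 and 225 RPM in the controls, a log2 fold change of -1.05 (edgeR adjusted p 0.647). The 5′ fragment of 31 nt reached 166, 147, 183 and 114 RPM in the activated mice and 501, 235, 764 and 73.7 RPM in the controls, a log2 fold change of -1.28 (edgeR adjusted p 0.670). In the 31 nt fragment control replicate 4 was the lowest of all libraries and control replicate 3 the highest. The internal 29 nt fragment shown above reached 5.10, 4.92, 2.98 and 7.44 RPM in the activated mice and 9.42, 11.5, 9.57 and 6.55 RPM in the controls, a log2 fold change of -0.85 (edgeR adjusted p 0.648). Activated replicate 4 overlapped the controls in it. With 1 library left out, the value of the 32 nt fragment ran from -1.29 (without control replicate 2) to -0.50 (without control replicate 3). That of the 31 nt fragment ran from -1.64 (without control replicate 4) to -0.75 (without control replicate 3), and that of the internal 29 nt fragment from -1.08 (without activated replicate 4) to -0.69 (without activated replicate 3).

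The 3 with the smallest p in the higher direction were the internal 18 nt fragment of CTT (log2 fold change 0.18), the 5′ 29 nt fragment of TTT (0.15) and an internal 17 nt fragment of CTT (0.06), and each changed sign when 1 library was left out. Without activated replicate 1, the 18 nt fragment was at -0.14 and the 29 nt fragment at -0.47; without control replicate 1, the 29 nt fragment was at -0.0105 and the 17 nt fragment at -0.16; without control replicate 3, the 17 nt fragment was at -0.0314. The 18 nt fragment, which covers bases 13 to 30 of the molecule, was also the most abundant internal one of CTT, and its TTT counterpart over the same bases was the most abundant internal one of TTT (-0.28, and -0.63 without activated replicate 1 but -0.0699 without activated replicate 3). The 15 nt CCA fragments had log2 fold changes of -0.09 for CTT and -0.27 for TTT, and 0.18 and 0.0235 without control replicate 3; for CTT the value was 0.0469 without activated replicate 3.

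The position that A29G marks divides the CTT 5′ reads long enough to reach it. The first form held 77.4, 73.4, 78.1 and 72.1% of these reads in the activated mice and 80.5, 73.9, 82.4 and 75.6% in the controls. The second form held the rest. The mapping allowed no mismatches, so reads that differ from the annotated sequences could not be counted. The first form was the more abundant in every library, and the groups overlapped. The first form reached 1372, 1210.4, 1254 and 866 RPM in the activated mice and 2159, 1488, 4853 and 1059 RPM in the controls, a ratio of means of 0.492. The second form reached 400.0, 439, 351 and 336 RPM in the activated mice and 523, 526, 1033 and 343 RPM in the controls, a ratio of 0.629. Control replicate 3 was highest in both forms, and without it the ratios were 0.749 and 0.822. The ratio was 0.879 in the low and 0.352 in the high mitochondrial rRNA set for the first form, 0.847 and 0.507 for the second, and a difference between the forms was not tested.

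The ratio of CTT to TTT within a library does not depend on the library total either. Its log2 value was 0.04, 0.28, 0.69 and -0.20 in the activated mice and 0.48, 0.02, 1.19 and 0.21 in the controls. Control replicate 3 and activated replicate 3 had the highest values of their groups, and the groups overlapped. The difference was -0.27 (exact permutation test, two-sided, p 0.486, adjusted p 0.778 over 43 pairs of anticodons of 1 amino acid), with -0.20 in the low and -0.35 in the high mitochondrial rRNA set, and with 1 library left out it ran from -0.44 without activated replicate 3 to -0.04 without control replicate 3. No pair passed the adjusted threshold in these exact tests, and 2 of 43 had an unadjusted p under 0.05.

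Against the other nuclear tRNAs, tRNA-Lys made up 5.10, 4.27, 4.12 and 4.21% of nuclear tRNA reads in the activated mice and 4.47, 4.65, 6.43 and 4.43% in the controls. Control replicate 3 was highest and activated replicate 1 next, while the other 3 activated mice lay below all controls. The difference was -0.571 percentage points (exact permutation test, two-sided, p 0.400, adjusted p 0.460 over 23 classes by amino acid). It was 0.117 points in the low and -1.26 points in the high mitochondrial rRNA set, and -0.092 without control replicate 3.

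The tRNAs for glycine, glutamate and valine served as references for the 5′ fragments. The log2 ratio of tRNA-Lys to tRNA-Glu was 0.79, 0.17, 0.42 and 1.11 in the activated mice and -0.34, -0.12, -0.58 and 0.09 in the controls. All 4 activated mice lay above all 4 controls, the nearest pair being activated replicate 2 and control replicate 4. The means were 0.62 ± 0.41 and -0.23 ± 0.29, a difference of 0.86. Its exact permutation p, two-sided, was 0.0286, the smallest the design allows, and 0.479 after adjustment over 190 pairs of tRNAs, so it did not pass. Of the 190 pairs, 6 had an unadjusted p under 0.05. The difference was 0.96 in the low and 0.75 in the high mitochondrial rRNA set.

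Behind this ratio stood the 5′ levels of tRNA-Glu, 2231, 2736, 1963 and 1371 RPM in the activated mice and 5808, 4798, 12328 and 2581 RPM in the controls. The 5′ level of tRNA-Lys was 3863, 3084, 2620.2 and 2951 RPM in the activated mice and 4599, 4429, 8237 and 2755 RPM in the controls. The ratio of means was 0.325 for tRNA-Glu and 0.625 for tRNA-Lys, so both were lower in the activated mice on average and tRNA-Glu more so. The ratio was 0.488 for tRNA-Glu and 0.949 for tRNA-Lys in the low mitochondrial rRNA set, 0.259 and 0.444 in the high set. As a share of nuclear tRNA reads, all ends together, tRNA-Glu itself had groups without overlap, unlike tRNA-Lys. It made up 5.99 to 6.48% in the activated mice and 6.80 to 11.7% in the controls. Against tRNA-Gly the log2 ratio differed by 0.07 between the group means, and in opposite directions within the low (0.67) and the high (-0.53) mitochondrial rRNA set (exact permutation p 0.83, two-sided, adjusted p 0.954). Leaving out 1 library moved this value between -0.0712 (without control replicate 4) and 0.27 (without control replicate 3), with a negative sign also without activated replicate 1 (-0.0244), activated replicate 4 (-0.00208) or control replicate 2 (-0.0182). Against tRNA-Val it differed by 0.01, with values between 3.32 and 3.70 in all 8 libraries (exact permutation p 0.943, two-sided, adjusted p 0.984), and its sign changed without activated replicate 3 (-0.0206), control replicate 2 (-0.00761) or control replicate 4 (-0.0714).

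**Figure D5:**
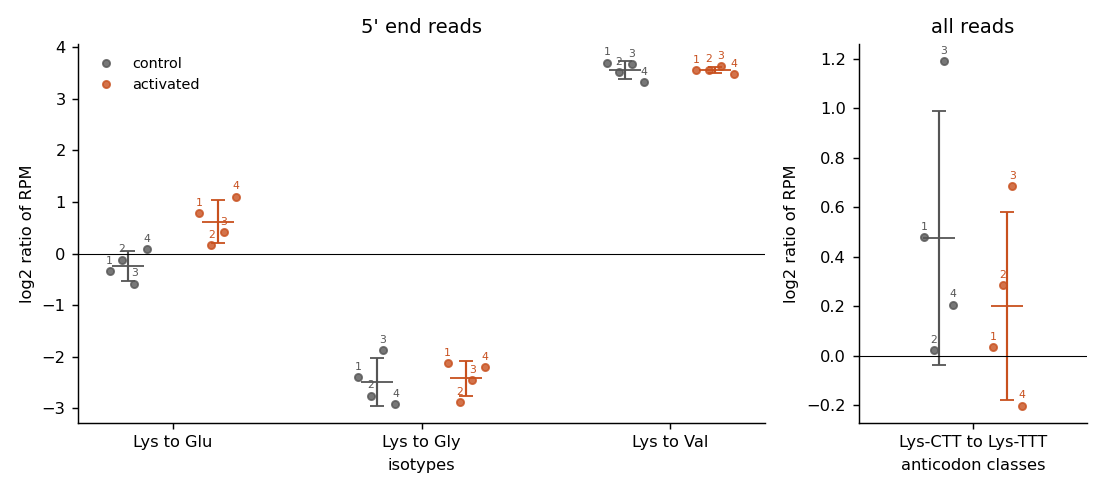
Log2 ratios of RPM within each library: 5′ end reads of tRNA-Lys to those of tRNA-Glu, tRNA-Gly and tRNA-Val (left) and all reads of tRNA-Lys-CTT to those of tRNA-Lys-TTT (right); points are libraries with their replicate number, bars are means with SD. The groups do not overlap for Lys to Glu and overlap in the other 3 ratios.

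The RNA species whose RPM ranked the 8 libraries most like each 5′ class were sought among 598 species other than tRNA-Lys. For CTT they were the 5′ fragments of tRNA-His-GTG (Spearman correlation 1), tRNA-Gly-CCC (0.976) and tRNA-iMet-CAT (0.976). For TTT they were the internal fragments of tRNA-Tyr-GTA (0.976), the 5′ fragments of tRNA-Thr-TGT (0.952), and, with equal values, those of tRNA-Met-CAT and tRNA-Val-TAC (0.929). These values describe 8 libraries, and all species of a library share its depth and composition. No test was made of these correlations.

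Mitochondrial tRNA-Lys, also with the anticodon TTT, is a separate molecule encoded in mitochondria and was kept apart. Its fragments reached 129, 355, 521 and 176 RPM in the activated mice and 225, 132, 341 and 128 RPM in the controls. Activated replicates 2 and 3, both in the high mitochondrial rRNA set, were highest, and the groups overlapped. The ratio of means was 1.43, opposite in direction to the nuclear tRNA-Lys, with 1.18 in the low and 1.55 in the high set. With 1 library left out it ran from 1.07 without activated replicate 3 to 1.83 without control replicate 3. The 4 mitochondrial tRNA-Lys species had log2 fold changes of 0.13 to 1.41, with edgeR adjusted p from 0.563 to 0.891.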

How the data were processed

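The deposited tables hold raw counts of each distinct read sequence with its annotation, made by the authors with SPORTS1.1 (Bowtie, no mismatches, mm10; reads of 15 to 45 nt, duplicates kept), 1 table per mouse, 4 mice per group. Counts were joined over the 8 tables and divided by the file total (RPM). Whole-table fits ran on single fragments, RNA species, and species by length: edgeR 4.0.16 quasi-likelihood tests (TMM, file totals as library sizes, at least 50 counts in at least 4 samples, Benjamini-Hochberg, adjusted p under 0.05, log2 fold change beyond 1) and DESeq2 1.42.0 with apeglm 1.24.0, in R 4.3.3. Ratios, shares and mean lengths had two-sided exact permutation tests over 70 assignments (Python 3.11.15), adjusted over all classes with at least 1000 reads, or 500 5′ reads, per library where a minimum applied. The pipeline was tested on simulated data. There edgeR missed many changed single fragments and few changed species, and DESeq2 made more false calls than edgeR among fragments. The log2 fold changes set there were larger in size than those of the tRNA-Lys species, and recovery of smaller ones was not tested. Named fragments are the most abundant per anticodon and end, the 3 with the smallest p in each direction, and the 3 species most like each 5′ class. Members, lists and this rule were chosen with earlier results of these data known. Low and high mitochondrial rRNA sets split at 0.5% of reads. Alternatives covered tool, scaling, library size, count minimum, genome match, fragment length, replicate block, set, denominator and each library left out.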

Additional observations from a re-analysis of the deposited data

Results flagged for a closer look

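The share of nuclear tRNA reads that fell in tRNA-Lys had a library far from the others in both groups. In the activated mice, replicate 1 stood at 5.10%, with the other 3 between 4.12% and 4.27%, a gap of 0.848 of the group's range. In the controls, replicate 3 stood at 6.43%, with the other 3 between 4.43% and 4.65%, a gap of 0.891 of the range. Both gaps exceed Dixon's critical value (95%) for 4 samples. Such gaps arise by chance in about 1 in 20 groups, and 40 groups of 4 were examined here, with 2 found. These groups did not cover every quantity reported above, such as the marker miRNAs. In the smooth muscle miRNAs control replicate 4 also stood far from the other controls, at 35005 RPM against at most 359.9 RPM. Why these libraries stand apart was not tested.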

How the results depend on the processing

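No tRNA-Lys species, length sum or fragment was called under any alternative run, by either tool. The exact tests could hardly pass, since 4 against 4 allows no p below 0.0286 before adjustment over 18 to 190 tests. Counts over all features moved more: edgeR called 52 fragments higher and 0 lower, against 195 and 45 with DESeq2, 27 and 0 with library size only, 256 and 0 at a minimum of 10 counts, 124 and 13 with the mitochondrial rRNA set as covariate, 0 and 0 with genome-matched fragments only, 0 and 0 with the replicate block, and 0 to 54 higher in leave-one-out fits (54 without control replicate 1, 15 without activated replicate 2, 0 without any other library). Library sizes from the sum of the tested fragments, an alternative chosen after seeing the data, gave 61 and 0; both versions were run, and file totals, used first, were kept. Without a count minimum, 16 length sums were called higher and 244 lower, against 0 and 0; species by DESeq2 gave 3 lower and length sums 1 higher and 12 lower. Within the mitochondrial rRNA sets, directions turned or values moved for the 5′ share of TTT (high set 0.663 points), the TTT mean length (low -0.153 nt, high 0.225 nt), the tRNA-Lys share (low 0.117 points), Lys to Gly (low 0.67, high -0.53) and Lys to Val (high -0.0873), with 2 mice per group in each; the cause was not tested. As a share of nuclear tRNA reads the TTT ratio was 1.01. Leave-one-out ranges crossed 0 for the 5′ share of TTT (-2.69 to 1.64 points), the TTT mean length (-0.0448 to 0.105 nt), Lys to Gly (-0.0712 to 0.27) and Lys to Val (-0.0714 to 0.0552). They did so too for the log2 fold changes of the TTT 5′ 29 nt (-0.47 to 0.52), CTT CCA 15 nt (-0.45 to 0.18), TTT CCA 15 nt (-0.44 to 0.0235), CTT internal 18 nt (-0.14 to 0.36) and CTT internal 17 nt (-0.16 to 0.26) fragments. The TTT 5′ 29 nt fragment was -0.0411 with the replicate block and -0.0836 with the set covariate, and the CTT CCA 15 nt fragment 0.0138 with genome-matched fragments only. The log2 fold change of the CTT 5′ species stayed negative in each alternative, from -1.21 to -0.33 in edgeR and at -0.17 in DESeq2, whose values are shrunken toward 0. The replicate numbers of the groups do not pair the mice, since profiles of equal number correlated from -0.63 to 0.59. Limits are 4 mice per group, libraries that differ in mitochondrial rRNA and in other cells, reads cut off below 15 nt, and a replicate block test whose smallest p is 0.125.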
